A study of Mus musculus with 30 samples.

Results

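The hippocampal RNA of mice that received the Y397D point mutant of CREST before a weak training session was set against that of vehicle mice given a full training session. CREST, encoded by Ss18l1, is a calcium-responsive transactivator. It belongs to the neuronal BAF (nBAF) chromatin remodelling complex and interacts with the acetyltransferase CBP. In object location memory (OLM), a mouse learns where 2 objects stand, and the dorsal CA1 is required for the memory. Y397D-T3 mice carried a plasmid for HA-tagged mouse CREST with the tyrosine of codon 397 changed to aspartate, and trained for 3 min, which the study treats as subthreshold for long-term memory. VEH-T10 mice received the same reagent, in vivo-jetPEI, without DNA and trained for 10 min, which is sufficient for long-term memory. The comparison uses 12 of the 30 libraries of the series, chosen by their labels, with 1 library per mouse and 6 mice per condition.

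All mice of both conditions were young adult male C57BL/6J mice infused bilaterally 3 days before training by the labels, and the dorsal hippocampus was collected 1 h after training. The plasmid is driven by a minimal CaMK2 promoter, the tissue was taken as a whole, and the share of cells that took up the plasmid was not analysed here. Plasmid, DNA delivery and training period change together between the 2 conditions, so their contributions cannot be told apart within this comparison. VEH-T3 mice (vehicle, 3 min) and VEH-HC mice (vehicle, home cage) are given beside it for context, with 6 mice each.

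Neuronal activity raises intracellular calcium, which acts through kinases on CREB and leads to recruitment of CBP at immediate-early genes. These genes, such as Fos, Egr1 and Arc, are transcribed within minutes, and many encode factors or synaptic proteins needed for lasting plasticity. The nBAF complex is the neuronal form of a nucleosome remodeller in which Ss18l1 takes the place that Ss18 holds in dividing progenitors. The comparison asks which transcripts differ between weak training with the point mutant and full training without it. An aspartate can stand in for a phosphorylated residue, but whether this tyrosine is phosphorylated is not established.

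The residue that was changed lies near the end of the protein. The reading frame of Ss18l1 in GENCODE (transcript ENSMUST00000041126, GRCm38, plus strand) has 402 codons, and codon 397 occupies chr2:180067338-180067340 in exon 11, the last exon. The endogenous codon is shown because it defines the mutant. The line gives codons 384 to 402 without the stop codon, spliced from chr2:180063366-180063398 in exon 10 and chr2:180067332-180067355 in exon 11, with the tyrosine codon in capitals.
Ss18l1 codons 384 to 402: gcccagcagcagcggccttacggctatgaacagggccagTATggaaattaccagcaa

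To show what lies upstream of a known activity gene and of genes called in the comparison, the 250 bases before the start of transcription are given from RefSeq (GRCm38.p6), read along the gene's strand. Capitals mark TGACG or its reverse complement CGTCA, the half-site of the element bound by CREB. This half-site occurs in 17.8% of 32851 such windows and the full palindrome TGACGTCA in 1.55%. Fos holds 2 half-sites, and the windows of Med26 and Zbed5 and the first of the 4 RefSeq starts of Ccdc9, shown here, hold 0. Entry 4 of Ccdc9 holds 1 half-site, and of the 2 starts of Pfdn2, another called gene, entry 2 holds 1 half-site that begins 9 bases before the start. The Pfdn2 windows overlap annotated exons and are not shown. The windows lie at chr12:85473640-85473889 (plus strand) for Fos, chr8:72548311-72548560 (minus) for Med26, chr7:16286796-16287045 (minus) for Ccdc9 and chr5:129895473-129895722 (plus) for Zbed5.
Fos: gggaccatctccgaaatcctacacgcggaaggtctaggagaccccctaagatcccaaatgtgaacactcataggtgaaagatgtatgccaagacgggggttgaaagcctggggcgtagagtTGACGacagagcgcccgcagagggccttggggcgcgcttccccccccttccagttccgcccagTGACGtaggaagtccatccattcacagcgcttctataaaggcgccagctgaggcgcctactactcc
Med26: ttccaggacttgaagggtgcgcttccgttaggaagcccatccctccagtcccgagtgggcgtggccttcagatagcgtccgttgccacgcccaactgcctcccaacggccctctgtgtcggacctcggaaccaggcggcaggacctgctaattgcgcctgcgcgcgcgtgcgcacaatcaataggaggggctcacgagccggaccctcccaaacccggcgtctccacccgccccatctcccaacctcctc
Ccdc9: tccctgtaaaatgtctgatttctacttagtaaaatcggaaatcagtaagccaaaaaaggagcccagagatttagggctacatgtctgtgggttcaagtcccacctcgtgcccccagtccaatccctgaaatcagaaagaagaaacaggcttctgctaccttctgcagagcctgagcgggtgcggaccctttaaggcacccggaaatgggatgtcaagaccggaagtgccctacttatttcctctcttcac
Zbed5: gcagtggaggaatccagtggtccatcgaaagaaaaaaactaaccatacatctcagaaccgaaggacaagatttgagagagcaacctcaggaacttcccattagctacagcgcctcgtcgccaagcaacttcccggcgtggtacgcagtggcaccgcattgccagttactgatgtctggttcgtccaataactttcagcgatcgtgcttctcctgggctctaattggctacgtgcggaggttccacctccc

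Values are FPKM, fragments scaled to transcript length and to the mapped fragments of the library, as deposited. Differences are Y397D-T3 minus VEH-T10 on log2(FPKM + 1), a scale that understates the fold of genes with low FPKM. Folds given with a gene are folds of FPKM + 1. A gene was called at a Benjamini-Hochberg adjusted p under 0.05 in limma over 13184 rows with a mean of at least 1 FPKM. FPKM carries no read totals. Relative depth was estimated from the most common ratio of low FPKM values between pairs of libraries and set against the median library. It lay between 0.95 and 1.05 in Y397D-T3 and between 0.898 and 1.25 in VEH-T10. Libraries correlated with a median r of 0.9804 in 30 pairs within a condition and of 0.9786 in 36 pairs across the conditions. Deviations of a library from the gene means followed transcript length with a median rank correlation of 0.0746 in Y397D-T3 (-0.317 to 0.27) and -0.0997 in VEH-T10 (-0.38 to 0.194).

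Ss18l1 itself (chromosome 2: 180042509-180070201, plus strand) was slightly higher in Y397D-T3. Its FPKM ranged from 12.9 to 14 in Y397D-T3 (median 13.7) and from 10.4 to 13.3 in VEH-T10 (median 12.4). All 6 Y397D-T3 mice lay above the VEH-T10 median and 4 lay above the highest VEH-T10 mouse. The difference was 0.17 log2 (2-sided exact permutation p = 0.00866, 6 against 6 mice, where 0.00216 is the smallest p possible). In limma over all rows it was not called (adjusted p = 0.389, 95% interval 0.05 to 0.28). VEH-T3 mice, which received no plasmid, had a median of 12.9 and a range of 11.8 to 14.7, and Y397D-T3 exceeded them by 0.07 log2 (adjusted p = 0.786). Transcript from the plasmid and from the endogenous gene share 1 symbol in the table, so the level does not show which library carries the plasmid.

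**Figure D1:**
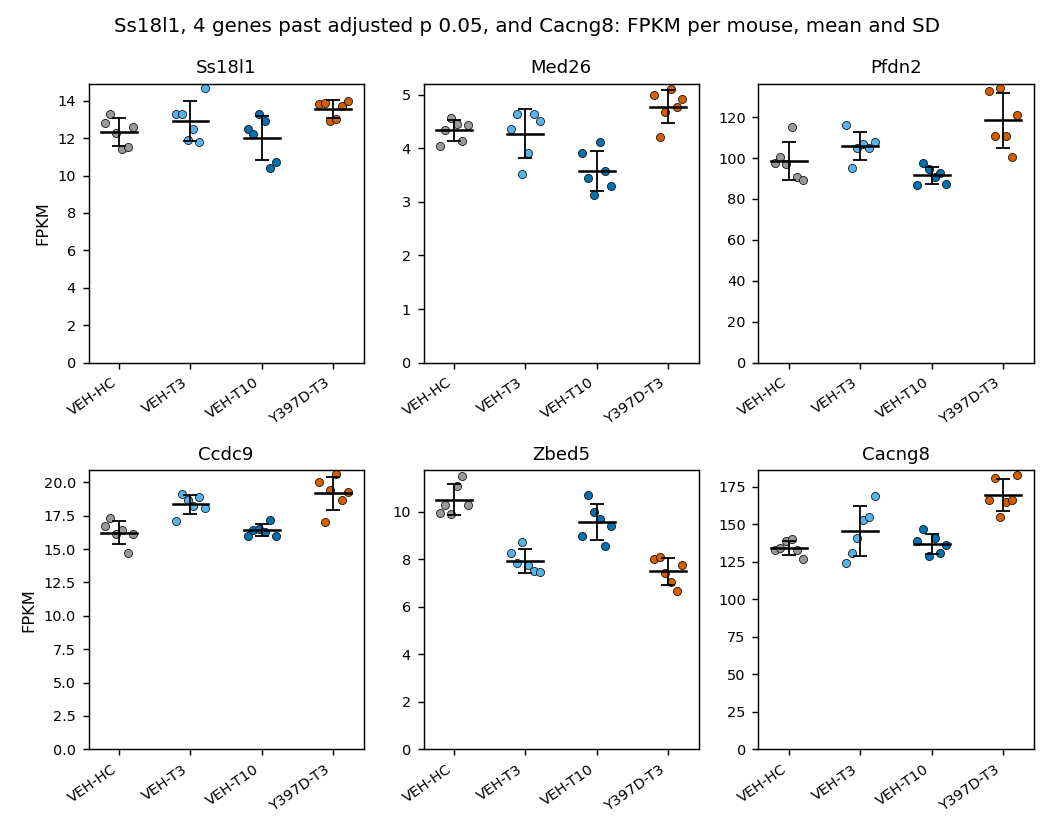
FPKM of Ss18l1, Med26, Pfdn2, Ccdc9, Zbed5 and Cacng8 in each mouse of 4 conditions, with the mean and SD (n = 6 mice). Med26, Pfdn2 and Cacng8 in Y397D-T3 lie above all VEH-T10 mice and Zbed5 lies below them, while Ccdc9 and Zbed5 in VEH-T3 lie near Y397D-T3.

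Few transcripts separated the 2 conditions. Limma called 5 rows, 0.0379% of those tested, with 4 higher in Y397D-T3 (0.0303%) and 1 lower (0.00758%). At an unadjusted p under 0.05 there were 692 higher rows (5.25%) and 490 lower rows (3.72%), where 659 in all correspond to 5% of the rows. The 6 mice of one condition did not overlap the 6 of the other in 73 higher rows (0.554%) and 33 lower rows (0.25%). The median difference of all rows was 0.00 log2.

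The precision was enough to bound most genes. The 95% interval had a median half-width of 0.16 log2 and lay within 0.5 log2 of 0 in 11508 rows (87.3%). This bound is a fold of 1.41 in FPKM + 1 and a larger fold in FPKM itself, most so for rows near 1 FPKM. Within 1 log2 it held for 12734 rows (96.6%). A difference under these bounds may remain undetected.

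Med26, a subunit of Mediator that helps RNA polymerase II leave the promoter, was higher in Y397D-T3. Its FPKM ran from 4.22 through a median of 4.84 to 5.11 in Y397D-T3 and from 3.13 through 3.51 to 4.12 in VEH-T10, with no overlap. The fold was 1.27 (95% interval 1.16 to 1.38, adjusted p = 0.0173). The gene lies at chromosome 8: 72494561-72548270 on the minus strand. VEH-T3 mice had a median of 4.45 and VEH-HC mice 4.4, so in the vehicle conditions the lowest median was that of VEH-T10.

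Pfdn2, a subunit of the prefoldin chaperone that delivers unfolded actin and tubulin to their folding machinery, was also higher. The Y397D-T3 mice ranged from 100.3 to 134 FPKM around a median of 116 and the VEH-T10 mice from 86.8 to 97.5 around 91.9. These ranges did not overlap, and the fold was 1.28 (1.17 to 1.4, adjusted p = 0.0173). The VEH-T3 median of 106 FPKM fell between those of the 2 conditions. Pfdn2 spans chromosome 1: 171345670-171359254 on the plus strand.

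Ccdc9, a coiled-coil protein, measured 17 to 20.6 FPKM in Y397D-T3 (median 19.4) and 16 to 17.2 in VEH-T10 (median 16.3). One mouse of Y397D-T3 fell within the VEH-T10 range and the other 5 lay above it. The fold was 1.16 (1.1 to 1.22, adjusted p = 0.0208). The gene lies at chromosome 7: 16274042-16286795 on the minus strand, and the VEH-T3 median was 18.5 FPKM.

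Zbed5 (chromosome 5: 129895723-129903623, plus strand), a gene derived from a DNA transposon, was the called gene that was lower in Y397D-T3. Y397D-T3 mice had 6.65 to 8.09 FPKM (median 7.6) and VEH-T10 mice 8.54 to 10.7 (median 9.55), with no overlap. The fold was 0.806 (0.749 to 0.867, adjusted p = 0.0173). VEH-T3 mice had 7.45 to 8.74 FPKM and VEH-HC mice 9.89 to 11.5, so the medians of both conditions trained for 3 min were below those of the other 2.

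These calls depended on single libraries. No row was called in either direction without Y397D-T3 mouse 3, without Y397D-T3 mouse 4 or without VEH-T10 mouse 6, and without Y397D-T3 mouse 6 Zbed5 alone was called. With only the 12 libraries in the model, none of the 5 rows was called. Over 20 alternatives the direction held and the adjusted p ran from 0.00908 to 0.103 for Med26, 0.00595 to 0.103 for Pfdn2, 0.00303 to 0.123 for Ccdc9 and 0.00674 to 0.143 for Zbed5. Removing the trend with transcript length and GC content left Med26 and Ccdc9 called, and so did centring each library on its median, where Pfdn2 (adjusted p = 0.0654) and Zbed5 (adjusted p = 0.0675) lost their calls. The gene spans of Med26, Pfdn2 and Zbed5 overlap genes on the opposite strand (Gm17435, Klhdc9 and Phkg1), and whether the counting used strand is not given in the sources used here.

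Next in order of p among rows with an estimate above 0, with no call, came Cacng8, Tbl1xr1, Cacng7, Atxn1 and Cbx1. Cacng8 encodes an auxiliary subunit of AMPA receptors abundant in the hippocampus. It measured 155 to 183 FPKM in Y397D-T3 (median 166) and 129 to 147 in VEH-T10 (median 138), with no overlap (difference 0.30 log2, adjusted p = 0.0847). Its relative Cacng7 measured 79.9 to 99 FPKM against 65.8 to 80.5 (0.29 log2, adjusted p = 0.0847), and the highest VEH-T10 mouse lay within the Y397D-T3 range. Tbl1xr1, a component of the NCoR corepressor complex, had medians of 10.6 and 8.86 FPKM (0.20 log2, adjusted p = 0.0847). The same order held for Atxn1, the ataxin-1 gene (8.12 and 6.16 FPKM, adjusted p = 0.0858), and Cbx1, a heterochromatin protein (16.6 and 13 FPKM, adjusted p = 0.0858). VEH-T3 medians were 10.8 FPKM for Tbl1xr1, 8.14 for Atxn1, 14.9 for Cbx1, 147 for Cacng8 and 80.1 for Cacng7. Tbl1xr1 was called higher in VEH-T3 than in VEH-T10 (0.24 log2, adjusted p = 0.0266 in limma).

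On the lower side, also without a call, stood Gstp2, a glutathione transferase, with medians of 17.7 FPKM in Y397D-T3 and 24.2 in VEH-T10 (-0.41 log2, adjusted p = 0.0847) and ranges that overlapped. Sh3bgrl, a thioredoxin-fold protein, measured 33.9 to 45 against 47.1 to 51.3 FPKM (-0.32 log2, adjusted p = 0.0847). Its mice did not overlap, and the same was true of the pseudogene Morf4l1-ps1, of Sla2, an adaptor of antigen receptor signalling, and of Hnrnpa1, an RNA-binding splicing factor. Hnrnpa1 measured 54.9 to 68.5 FPKM against 72.2 to 83.7 (-0.28 log2, adjusted p = 0.162). For Morf4l1-ps1 the difference was -0.27 log2 (adjusted p = 0.0879) and for Sla2 -0.32 log2 (adjusted p = 0.153). The host gene of small nucleolar RNAs Snhg8 had medians of 10.3 and 13.7 FPKM (adjusted p = 0.0879). The remaining 3 of the 10 lower rows were Ndufaf4, an assembly factor of respiratory complex I, Dynlt3, a dynein light chain, and Fundc2, a mitochondrial outer membrane protein, with differences of -0.24, -0.26 and -0.22 log2 and adjusted p of 0.115, 0.126 and 0.153.

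The largest estimate among the uncalled genes of smallest p was that of the beta-globin row Hbb-bs, which is read with caution. It had 4.84 to 79.6 FPKM in Y397D-T3, whereas 4 of the 6 VEH-T10 mice were below 0.01 FPKM and the highest had 17.4 (adjusted p = 0.0879). Hbb-b1, a near-identical copy, had 209 to 1025 FPKM in Y397D-T3 and 341 to 455 in VEH-T10. Reads can be divided between these copies in different ways in different libraries, so the Hbb-bs row is uncertain.

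No immediate-early transcription factor was called between Y397D mice after weak training and vehicle mice after full training. Limma called 0 of 22 tested members, and the other 2 of the 24 listed, Fosl1 and Maff, had a mean under 1 FPKM. At an unadjusted p under 0.05 there were 3 higher members and 0 lower ones, beside 5.25% and 3.72% of all rows. The median difference of the list was 0.11 log2 beside 0.00 for all rows, with 17 estimates above 0 and 5 below. The 95% interval lay within 0.5 log2 of 0 in 18 of the 22. VEH-T3 against VEH-T10 also had 0 calls among these 22 (median 0.00 log2), and so did Y397D-T3 against VEH-T3 (median 0.07 log2). The lack of calls is thus not particular to mice with the point mutant. Fos, the AP-1 component used most often as a mark of recent activity, measured 4.44 to 9.61 FPKM in Y397D-T3 (median 7.26) and 6.89 to 9.16 in VEH-T10 (median 7.08). The medians were close, and the Y397D-T3 mice enclosed the VEH-T10 range (difference -0.12 log2, interval -0.40 to 0.17, adjusted p = 0.811). Egr1, a zinc-finger factor required for lasting potentiation, measured 35 to 66.5 FPKM (median 56.8) against 46.6 to 53.1 (median 50.7). Its interval was -0.17 to 0.34 log2 (adjusted p = 0.863). Egr2 and Egr4, zinc-finger factors of the same family, had intervals of -0.30 to 0.32 and -0.08 to 0.30 log2, with medians of 1.44 against 1.16 and 24.2 against 21.5 FPKM. The study had named Fos, Egr1, Egr2 and Egr4 as raised over the home cage in both conditions, which favours small differences between them.

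The 4 members with the smallest p were Nr4a1, Jund, Ier2 and Btg2, and none was called. Nr4a1, an orphan nuclear receptor induced by activity, measured 21 to 42.9 FPKM in Y397D-T3 (median 33.8) and 23.8 to 25.8 in VEH-T10 (median 25.1). Of the 6 Y397D-T3 mice 5 lay above all VEH-T10 mice and mouse 3 lay below them (0.35 log2, interval 0.11 to 0.60, adjusted p = 0.378). Jund, an AP-1 partner, had medians of 93.3 and 80.4 FPKM (0.18 log2, adjusted p = 0.47). Ier2 measured 5.97 and 5.27 (adjusted p = 0.532) and Btg2, an antiproliferative factor, 6.36 and 4.97 (adjusted p = 0.613). Against VEH-HC, Jund, Ier2 and Btg2 in Y397D-T3 differed by 0.01, 0.03 and -0.08 log2, without a call. Their VEH-HC medians were 89.6, 6.49 and 6.17 FPKM, above those of VEH-T10. Nr4a1 in Y397D-T3 exceeded VEH-HC by 0.43 log2 (adjusted p = 0.0307 in limma).

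Activity-induced effectors gave the same count. Limma called 0 of 25 members, with 2 higher and 0 lower with an unadjusted p below 0.05 and a median of 0.06 log2. Of all rows, 5.25% were higher and 3.72% lower at that p. VEH-T3 against VEH-T10 and Y397D-T3 against VEH-T3 also had 0 calls among the 25, with medians of 0.01 and 0.05 log2. Arc, which drives the internalisation of AMPA receptors, measured 33.5 to 75.5 FPKM in Y397D-T3 (median 54.8) and 36.4 to 48.6 in VEH-T10 (median 38.5), with 4 Y397D-T3 mice above the VEH-T10 range and 1 below it (0.36 log2, adjusted p = 0.488). Homer1, a postsynaptic scaffold whose short form is induced by activity, had 20.1 to 24.6 FPKM against 18.5 to 25.7 and overlapped throughout (interval -0.14 to 0.17 log2). Dusp6, a phosphatase of ERK, measured medians of 27.7 and 23.7 FPKM (interval -0.06 to 0.34 log2). Homer1 and Dusp6 were also named by the study as raised over the home cage in both conditions. The MAP kinase phosphatases Dusp1 and Dusp4 and the activin subunit Inhba had differences of 0.22, 0.25 and 0.23 log2 and adjusted p of 0.556, 0.58 and 0.588. Against VEH-HC these 3 genes in Y397D-T3 differed by -0.20, 0.38 and 0.25 log2, without a call.

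**Figure D2:**
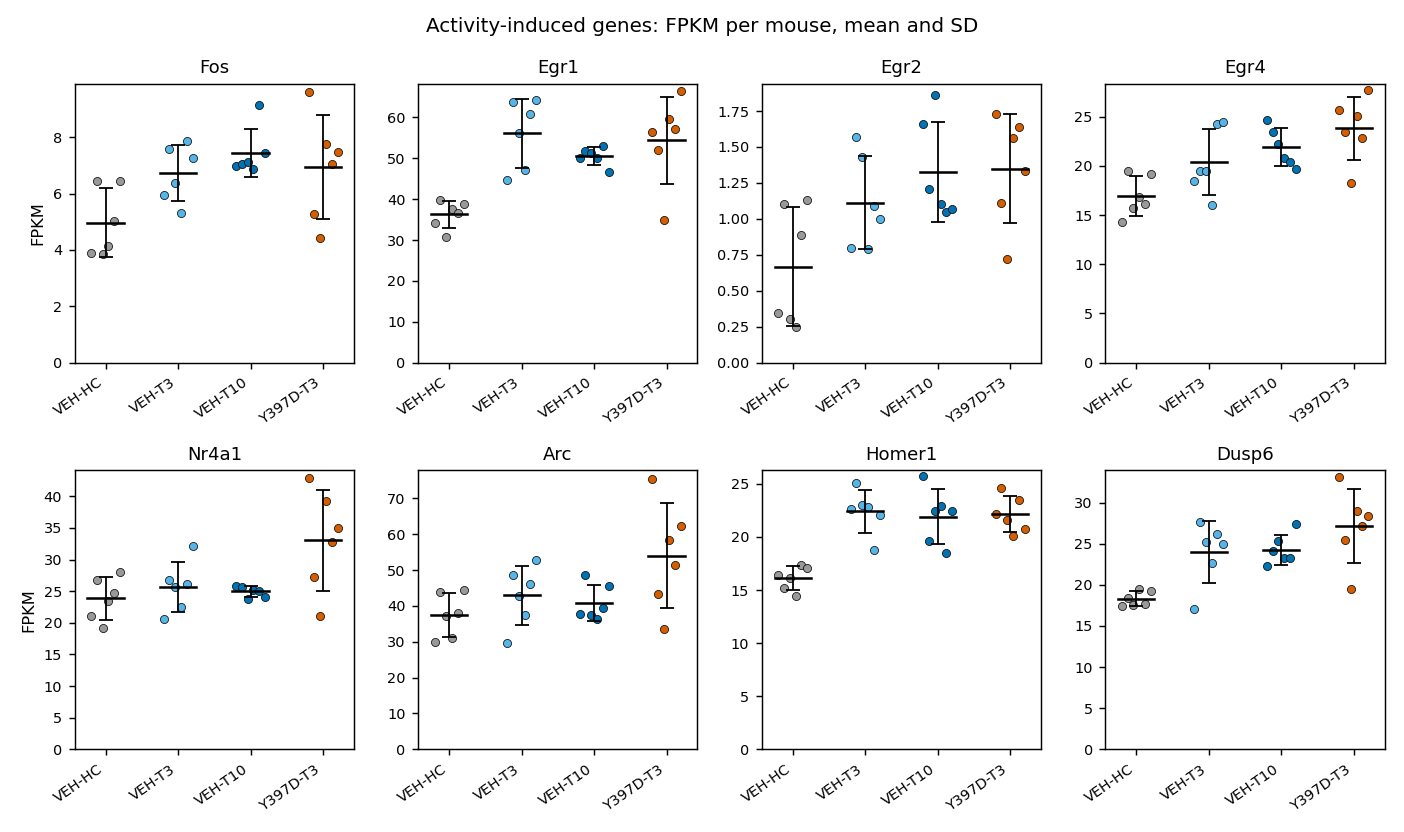
FPKM of 8 activity-induced genes in each mouse of 4 conditions, with the mean and SD (n = 6 mice). The ranges of Y397D-T3 and VEH-T10 overlap in each of the 8 genes, and 5 Y397D-T3 mice lie above the VEH-T10 mice for Nr4a1.

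Both conditions and VEH-T3 can be set beside the home cage, whose 6 mice are shared. In Y397D-T3 against VEH-HC, 515 rows were higher (3.91%) and 417 lower (3.16%), and in VEH-T10 against VEH-HC 42 were higher (0.319%) and 66 lower (0.501%). In VEH-T3, trained for 3 min without plasmid, 294 were higher (2.23%) and 387 lower (2.94%). Among the 22 immediate-early factors 7 were called higher in Y397D-T3, 2 in VEH-T10 and 3 in VEH-T3, and among the 25 effectors 4, 1 and 2. Choroid plexus markers summed to 919 to 5607 FPKM in the home cage mice, above most mice of either trained condition, and the part of that tissue in the home cage contrasts was not tested. The difference between these counts was not tested as such, and the direct comparison above called 0 of either list. Set directly against VEH-T3, Y397D-T3 had 0 higher and 1 lower row among the 13184 tested. VEH-T3 against VEH-T10 had 6 higher and 0 lower rows. The unlike home cage counts therefore do not measure how far the trained conditions differ from each other. Homer1 exceeded VEH-HC by 0.44 log2 in Y397D-T3 (adjusted p = 0.00159) by 0.42 in VEH-T10 (adjusted p = 0.00959) and by 0.45 in VEH-T3 (adjusted p = 0.00393). Egr1 exceeded it by 0.55 in Y397D-T3 (adjusted p = 0.0087) and was 0.47 above it, without a call, in VEH-T10 (adjusted p = 0.0651), with differences for Fos of 0.40 (adjusted p = 0.0741) and 0.52 (adjusted p = 0.0658) that were not called. In VEH-T3 Egr1 exceeded the home cage by 0.61 (adjusted p = 0.0104).

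Genes that the study listed as raised in both VEH-T10 and Y397D-T3 but not in VEH-T3 had no call in the direct comparison either. The study chose the list on these samples, so the home cage counts are not independent evidence of its direction. The same choice favours small differences between Y397D-T3 and VEH-T10. The lack of calls and the small median difference in the direct comparison are therefore not independent evidence of similarity. Of 50 tested rows 0 were called, 1 was higher and 0 lower with an unadjusted p below 0.05, and the median difference was 0.01 log2. The interval lay within 0.5 log2 of 0 in 46 of the 50. Against VEH-HC 38 of the 50 were called higher in Y397D-T3, 14 in VEH-T10 and 6 in VEH-T3. The member with the smallest p was Snhg20, a host gene of small nucleolar RNAs, with medians of 33.9 and 26.9 FPKM (0.30 log2, adjusted p = 0.435). Rnf182, a ubiquitin ligase, followed with 14.4 and 16 FPKM (adjusted p = 0.563).

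Calcium sensors that the study names had similar medians. The study picked these and the other genes of this paragraph as raised over the home cage in both conditions. That choice favours similar levels, so the values are not independent evidence of similarity. Cabp7, a neuronal calcium-binding protein, had medians of 120.5 FPKM in Y397D-T3 and 119 in VEH-T10 (interval -0.21 to 0.15 log2). The corresponding medians were 1555 and 1478 FPKM for hippocalcin, Hpca (-0.15 to 0.31 log2), 39.4 and 37.2 for the kinase Camk1d (-0.04 to 0.18), and 49.6 and 53.5 for tescalcin, Tesc (-0.24 to 0.10). These ranges overlapped, and each of the 4 intervals included 0. Among the other genes named by the study, the phospholipase Plch2 had 27.8 FPKM in both conditions (-0.28 to 0.24 log2), the matrix protein Smoc2 12.7 and 13.1 (-0.17 to 0.18), and the scaffold Homer3 26.2 and 26.9 (-0.26 to 0.14). Sirt4, a mitochondrial sirtuin, measured 7.81 and 7.79 FPKM (-0.18 to 0.17), Zfpm1, a cofactor of GATA factors, 19.7 and 18.4 (-0.13 to 0.31), and the clock gene Per2 6.7 and 6.36 (-0.09 to 0.22). The histone genes Hist2h4, Hist1h4j and Hist2h2aa2 were low and variable, with intervals of -0.15 to 0.95, -1.24 to 0.75 and -1.46 to 1.05 log2, so these data say little about them.

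**Figure D3:**
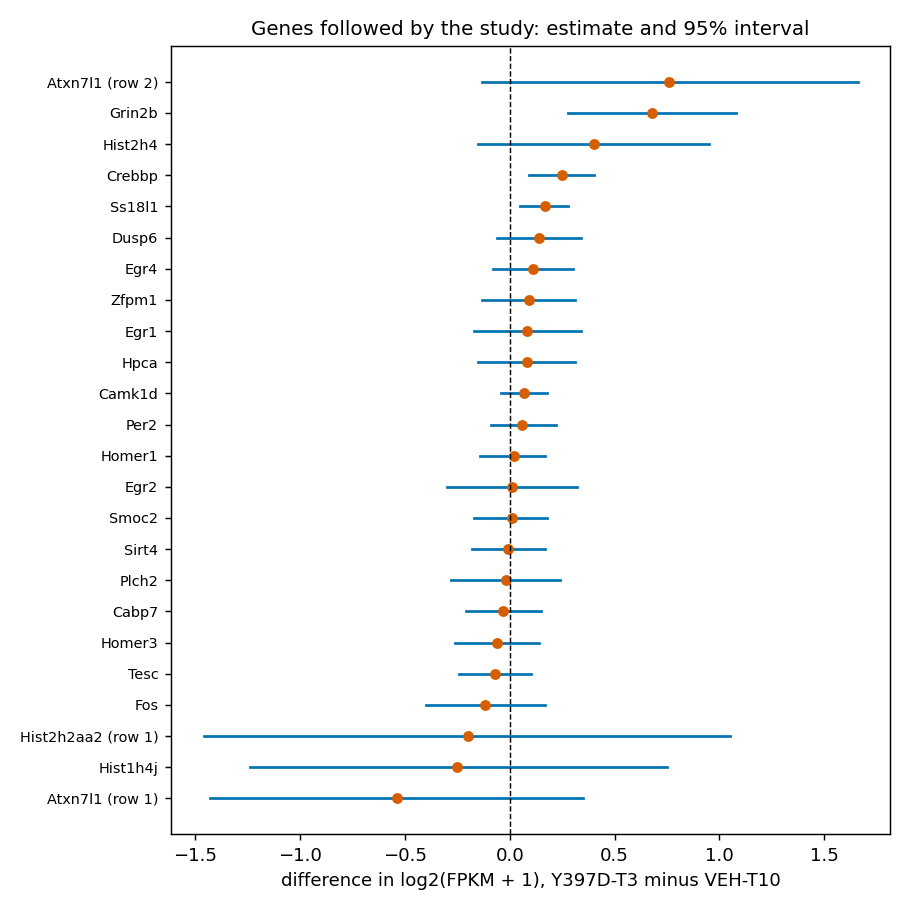
Difference in log2(FPKM + 1), Y397D-T3 minus VEH-T10, with its 95% interval for Ss18l1, Crebbp and the genes the study names. The intervals of Ss18l1, Crebbp and Grin2b lie above 0 before adjustment over genes, and those of Fos, Egr1, Homer1 and the calcium sensors include 0. Other than Ss18l1, Crebbp, Grin2b and Atxn7l1, the study named these genes as raised over the home cage in both conditions.

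Atxn7l1, a relative of a SAGA acetyltransferase subunit, occupies 2 rows that gave opposite estimates. Row 1 had medians of 2.26 FPKM in Y397D-T3 and 5.27 in VEH-T10 (-0.54 log2, adjusted p = 0.72) and row 2 had 10.8 and 5.46 (0.76 log2, adjusted p = 0.594). With both rows summed the difference was 0.14 log2 (adjusted p = 0.492). The rows therefore cannot be read singly.

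No gene for a partner of CREST was called. Of 28 BAF subunits 0 were called, 4 were higher and 0 lower with an unadjusted p below 0.05, and the median was 0.06 log2. Over all rows 0.0379% were called, so 0 calls among 28 says little about this list. At an unadjusted p below 0.05, 5.25% of all rows were higher and 3.72% lower. Ss18l1 had the smallest p of the list, followed by Arid1b, a BAF DNA-binding subunit, with 12 and 10.8 FPKM (adjusted p = 0.435), Bcl7a with 28.3 and 26.4 (adjusted p = 0.435) and the core subunit Smarcc2 with 60.6 and 58 (adjusted p = 0.549). All 28 intervals lay within 0.5 log2 of 0. Among 23 genes for CREB, CBP and other acetyltransferases 0 were called (3 higher and 0 lower with an unadjusted p below 0.05, median 0.06 log2). Crebbp, the gene for CBP, measured 6.48 to 7.72 FPKM in Y397D-T3 (median 7.43) and 5.47 to 6.51 in VEH-T10 (median 6.06). All but 1 of the Y397D-T3 mice lay above the VEH-T10 range (0.25 log2, interval 0.09 to 0.40, adjusted p = 0.288). The VEH-T3 median was 7.76 FPKM, and Y397D-T3 differed from VEH-T3 by -0.06 log2 (adjusted p = 0.867). The other 3 members of smallest p were Cited4 and Cited2, which bind CBP, and the coactivator Ncoa1, with differences of 0.36, 0.12 and 0.11 log2. Among 27 histone deacetylases and corepressors 0 were called (3 higher and 0 lower with an unadjusted p below 0.05, median 0.02 log2), and after Tbl1xr1 the smallest p belonged to the corepressor Ncor1 (0.12 log2) and to Hdac5 (0.09 log2).

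Synaptic receptors had estimates that lay mostly above 0. Of 24 glutamate receptor genes 0 were called, 5 were higher and 0 lower with an unadjusted p below 0.05, and 20 estimates lay above 0, with a median of 0.09 log2. Among all rows 0.0379% were called, 5.25% were higher and 3.72% lower at that p, and the median was 0.00 log2. Grin2b, an NMDA receptor subunit, measured 8.88 to 19.6 FPKM in Y397D-T3 (median 14.3) and 6.26 to 14.6 in VEH-T10 (median 7.79). One VEH-T10 mouse at 14.6 lay among the Y397D-T3 mice (0.68 log2, interval 0.28 to 1.08, adjusted p = 0.224). Grin2a, another NMDA receptor subunit, had 11.3 to 19.9 FPKM against 9.32 to 10.9, with no overlap (0.52 log2, adjusted p = 0.387). The VEH-T3 medians were 11.5 FPKM for Grin2b and 15 for Grin2a, the latter above that of Y397D-T3 at 14.6. Grid1 and Grm7, a delta and a metabotropic glutamate receptor, differed by 0.19 and 0.17 log2 (adjusted p = 0.441 and 0.447).

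GABA-A receptors (12 tested), postsynaptic scaffolds (15) and genes of vesicle release (27 rows) had 0 calls each. Their counts at an unadjusted p under 0.05 were 3, 3 and 2 higher and 0 lower, with medians of 0.06, 0.07 and 0.05 log2. Gabrb1, a beta subunit of the GABA-A receptor, differed by 0.30 log2 (adjusted p = 0.288). Dlgap1, a scaffold beneath glutamate receptors, had 113 to 119.9 FPKM against 97.7 to 111, with no overlap (0.17 log2, adjusted p = 0.338), and Dlgap2 differed by 0.21 log2 (adjusted p = 0.339). Unc13a, which primes vesicles, measured medians of 59.2 and 52.1 FPKM (adjusted p = 0.378), and Syt7, a calcium sensor of release, 62.7 and 54.9 (adjusted p = 0.542). Among 70 potassium channel genes 0 were called (12 higher and 2 lower with an unadjusted p below 0.05, median 0.09 log2). Of all rows, 5.25% were higher and 3.72% lower at that p. Kcnq3, a subunit of the M-current channel, had 14.5 to 20.6 FPKM against 11.5 to 13.5, with no overlap (0.39 log2, adjusted p = 0.338). Across all tested genes the difference had a rank correlation of 0.17 with transcript length, and the part of that trend in these medians was not tested.

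Calcium sensors, calmodulin kinases and calcineurin as a list had 0 calls among 34 (1 higher and 1 lower with an unadjusted p below 0.05, median 0.05 log2). The shares of all rows at that p were 5.25% higher and 3.72% lower. Ppp3ca, the catalytic subunit of calcineurin, measured 489 and 418 FPKM at the median (0.21 log2, adjusted p = 0.496) and Camk1 25.7 and 28.5 (-0.16 log2, adjusted p = 0.556). The circadian clock had 0 calls among 22 (2 higher and 0 lower with an unadjusted p below 0.05, median 0.05 log2), and all 22 intervals lay within 0.5 log2 of 0. Its members of smallest p were the repressors Cry2 (0.14 log2) and Per3 (0.16 log2), the kinase Csnk1e (0.07 log2) and the activator Arntl (0.14 log2). The glucocorticoid response had 0 calls among 15 (2 higher and 1 lower, median 0.02 log2). Klf9, a target of the glucocorticoid receptor, measured 52.5 to 60.6 FPKM against 44 to 51.7, with no overlap (0.24 log2, adjusted p = 0.193), while Sgk1, another target, measured medians of 31.3 and 41.1 (-0.38 log2, adjusted p = 0.535).

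Genes of translation, respiration, splicing and protein folding had medians between -0.05 and 0.04 log2. At an unadjusted p below 0.05, 5.25% of all rows were higher and 3.72% lower, and 0.0379% were called. Cytosolic ribosomal proteins had 0 calls among 83 (2 higher and 3 lower with an unadjusted p below 0.05, median -0.05 log2). Rps19 and Rps29 differed by -0.35 and -0.23 log2 (adjusted p = 0.256 and 0.311) and Rpl38 by 0.31 (adjusted p = 0.384). Nuclear subunits of oxidative phosphorylation had 0 calls among 80 (10 higher and 1 lower, median 0.02 log2), led by Ndufa6 and Ndufs5 of complex I, with 0.25 and 0.51 log2 (adjusted p = 0.162 and 0.208). Splicing factors of the SR and hnRNP families had 0 calls among 28 (5 higher and 2 lower, median 0.04 log2), with Hnrnpa1 below and Hnrnpa0 above VEH-T10 (-0.28 and 0.17 log2). Heat shock proteins and chaperones had 0 calls among 20 (0 higher and 3 lower, median -0.04 log2). Hspa5 and Hsp90b1, chaperones of the endoplasmic reticulum, differed by -0.31 and -0.23 log2 (adjusted p = 0.485 each). Clustered histone genes, with the highest median of the 21 gene lists, had 0 calls among 26 (4 higher and 0 lower, median 0.17 log2). Their estimates ran from -0.46 to 0.71 log2 and were imprecise. The median half-width of the interval was 0.55 log2, and 3 of the 26 intervals lay within 0.5 log2 of 0. Hist3h2a measured 70.7 to 87.1 against 56 to 68.2 FPKM, with no overlap (0.32 log2, adjusted p = 0.246).

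Genes of DNA sensing and interferon response, of interest because only Y397D-T3 received DNA, had wide intervals. Limma called 0 of 27 (0 higher and 0 lower with an unadjusted p below 0.05, median -0.07 log2), but the interval lay within 0.5 log2 of 0 in 2 of the 27 only. Isg15, an interferon-induced ubiquitin-like protein, measured 6.42 to 86.9 FPKM in Y397D-T3 and 2.02 to 36.2 in VEH-T10, with medians of 33 and 25.2 (interval -0.93 to 2.23 log2). Genes of glial reactivity and antigen presentation had estimates below 0 in all 22 tested members, and 0 were called (0 higher and 1 lower with an unadjusted p below 0.05, median -0.47 log2). Lyz2, a lysozyme of myeloid cells, measured 12.3 to 67.8 FPKM (median 28.9) in Y397D-T3 and 7.9 to 404 (median 116) in VEH-T10. The VEH-T10 mice spread wider and enclosed the Y397D-T3 range (-1.67 log2, interval -3.33 to -0.02, adjusted p = 0.556). Tyrobp and Cd68, myeloid signalling and lysosomal genes, had medians of 50.6 against 95.9 and 14.7 against 32 FPKM (adjusted p = 0.573 and 0.579).

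**Figure D4:**
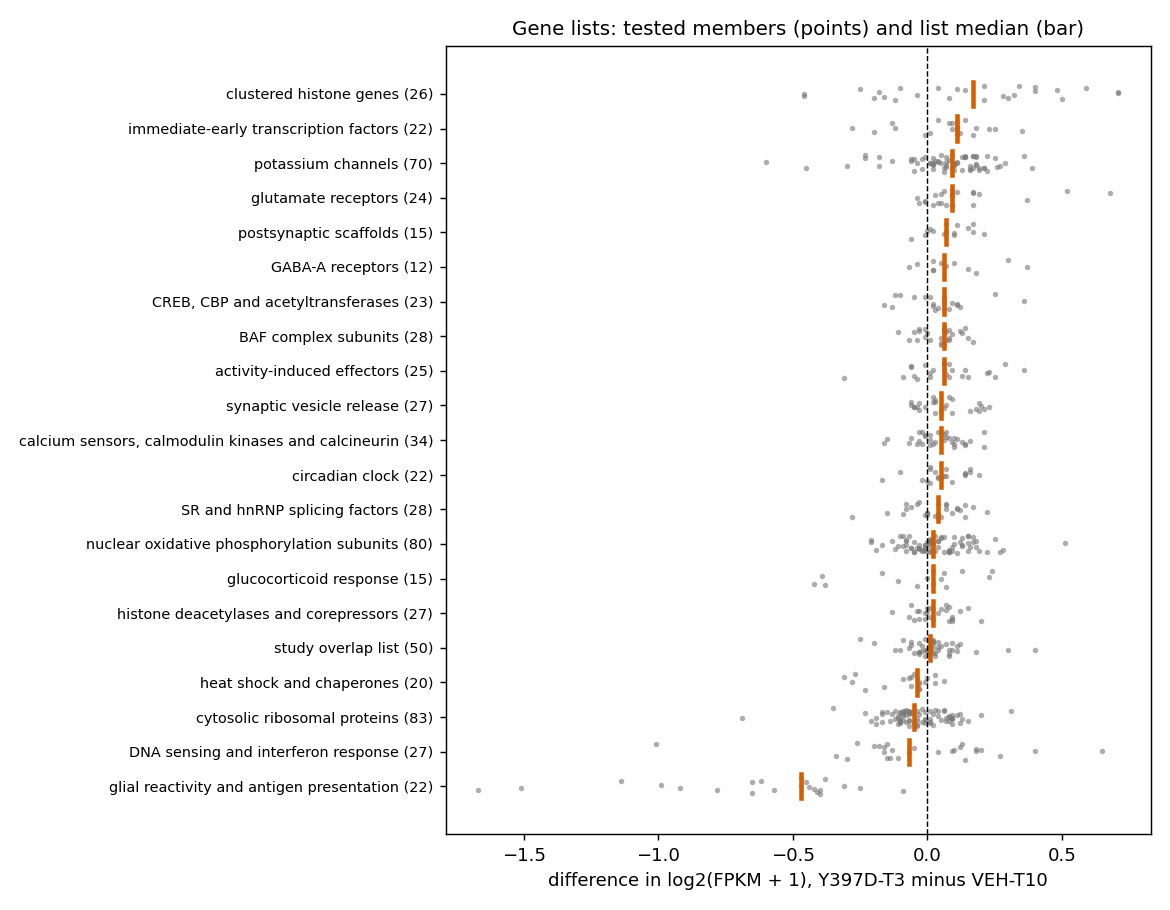
Difference in log2(FPKM + 1), Y397D-T3 minus VEH-T10, for each tested member of 21 gene lists (points), with the list median (bar) and the number of tested rows in brackets. List medians lie between -0.47 for glial reactivity and 0.17 for clustered histones, beside 0.00 for all rows (dashed line).

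The cell type markers show what else the dissections held. CA1 pyramidal markers (7 of 7 tested, 0 called, median 0.04 log2), such as Wfs1 and Fibcd1, were expressed in every mouse and summed to 212 to 277 FPKM in Y397D-T3 and 213 to 244 in VEH-T10. Markers of CA2 (4 tested, median 0.10), CA3 (5, -0.00) and dentate granule cells (6, 0.26) were present too, with 0 called, so the tissue was not CA1 alone. Dentate markers such as Prox1 summed to 99.5 to 184 FPKM in Y397D-T3 and 76.4 to 171 in VEH-T10, and 6 of 6 estimates lay above 0. In bulk tissue fewer cells of a type and less RNA per cell cannot be told apart.

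Astrocyte markers (7 tested, 0 called) had a median of -0.19 log2 and summed to 795 to 1317 FPKM in Y397D-T3 and 659.9 to 1851 in VEH-T10. Microglia markers (7 tested, 0 called) had a median of -0.27 log2, with 7 of 7 estimates below 0 and sums of 226 to 381 and 180.1 to 652 FPKM. These moved with the glial reactivity list, and their part in it was not tested. Choroid plexus markers (8 tested, 0 called, median -0.47 log2) varied most between mice, with sums of 14 to 2849 FPKM in Y397D-T3 and 10.5 to 4480.3 in VEH-T10. Blood markers (6 rows tested, 0 called, median 0.71 log2) summed to 638 to 1833 and 629 to 953 FPKM, and Hbb-bs is 1 of these rows.

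The remaining marker lists had 0 calls each. Their medians were 0.05 log2 for GABAergic interneurons, 0.06 for thalamus, 0.10 for deep cortical layers, -0.08 for ependyma, 0.03 for oligodendrocytes, -0.07 for oligodendrocyte precursors, -0.13 for endothelium, -0.15 for mural cells and -0.32 for meningeal fibroblasts. None of the 17 marker lists held a called row.

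**Figure D5:**
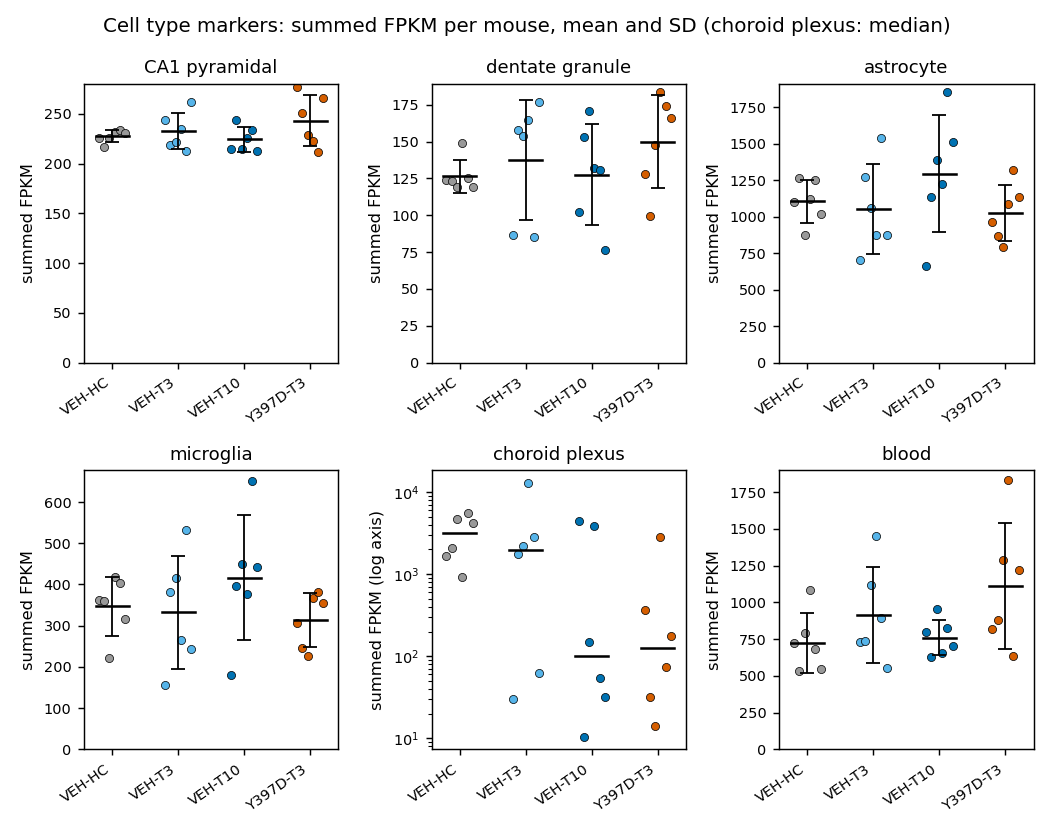
Summed FPKM of 6 marker lists in each mouse of 4 conditions, with the mean and SD, or for choroid plexus the median on a log axis (n = 6 mice). Y397D-T3 and VEH-T10 overlap in all 6 lists, and choroid plexus sums range from 10.5 to 4480.3 FPKM within VEH-T10.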

How the data were processed

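RNA of the dorsal hippocampus was sequenced from 30 mice, 6 in each of 5 conditions, as 150-base paired reads. Per the labels and methods, the authors aligned reads to mm10 with TopHat2 2.1.1 and computed FPKM with Cufflinks 2.2.1, and the deposited FPKM values were used unchanged. NovaSeq and HiSeq instruments are not assigned to libraries, so no batch could be modelled. All 30 value columns were used and 0 left out.

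Rows with a mean of at least 1 FPKM (13184 of 24883) were transformed to log2(FPKM + 1) and fitted over all 30 libraries in limma 3.58.1 (R 4.3.3), each condition having its own coefficient, with moderated variances with a trend and Benjamini-Hochberg adjustment. The authors' Bayesian analysis of variance was not repeated, and their supplementary comparisons were not used apart from the names in the overlap list. Ss18l1 was tested with an exact permutation test. The limma fit was tested on simulated data, with independent normal values drawn for each row. Other steps used Python 3.11.15 with pandas 2.3.3, numpy 2.4.6, matplotlib 3.10.9 and scipy 1.17.1. Gene positions come from GENCODE (GRCm38, the same assembly as mm10), which matched 99.3% of tested rows.

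Relative depth was estimated from 2642 rows with mean FPKM of 0.005 to 0.1 (largest residual 0.0157 log2 over 435 pairs of libraries). Precision rests on the spread within conditions (6 mice each), pooled in the limma fit over all 30 libraries with moderated variances. The intervals therefore do not rest on the 12 compared libraries alone.

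Genes were named by rule: up to 10 rows per direction by fold among called rows without overlap, then by smallest p, up to 4 members of smallest p per list (21 gene lists, 17 marker lists), genes named by the study, and markers. The comparison, members and lists were chosen with earlier results of these data known. A further called gene and a further list member are not reported here. Alternatives were a smaller pseudocount (0.1), no minimum mean (rows above 0 in at least 6 libraries), a filter over the 12 libraries, centring on the median, removal of the trend with length and GC content, only the 12 libraries, the replicate number as a block, unadjusted p values, summed rows and leaving out each library.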

Additional observations from a re-analysis of the deposited data

Results flagged for a closer look

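Among the genes named, single mice stood far from the other 5 of their condition 11 times in 244 sets of 6 values, by Dixon's ratio of gap to range at the 95% level. Chance gives about 1 in 20 sets, or 12.2 here, so this number is no more than chance gives.

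In VEH-T10, mouse 3 had 17.4 FPKM of Hbb-bs where the next had 4.31, and mouse 1 had 14.6 FPKM of Grin2b where the next had 8.47. Mouse 5 of VEH-T10 stood high in 4 genes, with Rps27 at 34.8 FPKM (next 7.24), Ccl5 at 41.8 (next 14.9), Fos at 9.16 (next 7.45) and Hist2h2aa2 at 11.7 (next 1.66). Mouse 6 of VEH-T10 had 37.3 FPKM of Homer3 (next 28.5).

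In Y397D-T3, mouse 1 had 7.34 FPKM of Ndufaf4 where the next had 6.01. Mouse 3 had 22.3 FPKM of Sgk1, below the next at 30.9. In the same mouse the 2 rows of Atxn7l1 lay apart in opposite directions, with 10.5 FPKM in row 1 (next 2.29) and 2.54 in row 2 (next 9.36).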

How the results depend on the processing

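The counts of called genes were small and moved with the processing. Against 4 higher and 1 lower, removing the trend with transcript length and GC content gave 2 and 0, using only the 12 libraries 1 and 0 (the higher row, Gm12338, was not among the 4 and was chosen after its values were seen), and an unadjusted p under 0.05 gave 692 and 490. Leaving out 1 library at a time gave 0 to 7 higher and 0 to 5 lower genes. Both counts were 0 without Y397D-T3 mouse 3 or 4 or VEH-T10 mouse 6, they were 0 and 1 without Y397D-T3 mouse 6 and 2 and 1 without VEH-T10 mouse 3, and they rose to 7 and 5 without Y397D-T3 mouse 1 and to 7 and 4 without VEH-T10 mouse 1. A pseudocount of 0.1, no filter, a filter over the 12 libraries, centring on the median and summed rows left both counts within 1.5 times. With centring the lower call was Sh3bgrl, and Zbed5 and Pfdn2 lost their calls (adjusted p = 0.0675 and 0.0654 in limma).

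The replicate numbers showed no regular pairing of the mice of these 2 conditions. Same-numbered mice had correlations of -0.0472, -0.152, 0.169, 0.047, 0.517 and 0.122, and for 1 of the 6 numbers this was the highest in its row. The other conditions were not examined for this, so a block by replicate number over all 30 libraries is not excluded. With the replicate number as a block, 2 genes were higher and 1 lower, and the Ss18l1 difference of 0.17 log2 had an exact sign-flip permutation p of 0.0938, where 0.0312 is the smallest possible. Under the other alternatives the Ss18l1 difference stayed between 0.13 and 0.19 log2 with exact permutation p from 0.00216 to 0.0238.

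Of 2438 values of the 122 named rows under alternatives, 0 changed sign with a call, 35 lost a call and 15 gained one. The causes were not tested. Without read counts, depth sets no limit that can be stated per gene, and rows below 1 FPKM are imprecise.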

Other observations

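The median level of the 22 immediate-early transcription factors differed between Y397D-T3 mice. Relative to the VEH-T10 mean of each gene, the median over the list was 0.17 log2 in Y397D-T3 mouse 1, -0.03 in mouse 2, -0.19 in mouse 3, 0.23 in mouse 4, 0.11 in mouse 5 and 0.15 in mouse 6, while the VEH-T10 mice, measured from their own mean, lay between -0.08 and 0.05. In mouse 3, 8 of the 22 lay above the VEH-T10 mean, as in mouse 2, and in the VEH-T10 mice 7 to 15 did. Mouse 3 had the lowest value of Y397D-T3 for Fos (4.44 FPKM), Egr1 (35) and Nr4a1 (21), but the highest for Jund (97.6) and a high value for Btg2 (6.48). Whether the genes vary together was not tested, and the genes in this paragraph were chosen after their values were seen.

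The spread of log2(FPKM + 1) was larger in Y397D-T3 than in VEH-T10 for 14 of the 22 immediate-early factors (63.6%) and 15 of the 25 effectors (60.0%), beside 6006 of all 13184 tested rows (45.6%). Median SDs were 0.2 and 0.188 for the immediate-early factors, 0.213 and 0.168 for the effectors and 0.121 and 0.124 for all rows. These values are given as a description, without a test.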
